A study of Mus musculus with 16 samples.

Results

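H3K4me3, the trimethylation of histone H3 at lysine 4 that marks active promoters, was examined at the genes of TFIID, the general transcription factor that recognises core promoters. The 7 genes were Taf1, Taf3, Taf4, Taf4b, Taf5, Taf12 and Tbp. Every H3K4me3 region inside one of these genes or within 2 kb of either end was taken, which gave 13 of the 35996 regions listed. One Taf4 region, chromosome 2 from 179975979 to 179976693 of mm10, led to the choice of the genes. It was chosen by its H3K4me3 counts, which were higher after novelty than under standard conditions. The values of that contrast, and of every comparison of that region that uses the same cohort, are therefore a description and carry no test.

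The data came from hippocampi of adult male mice aged 2 to 4 months, in 16 ChIP-seq libraries of which 12 were for H3K4me3. Mice mutant for Kdm5c (KO) and their wild-type littermates (WT), on a mixed F1 background of C57 and 129, were sampled after 1 h alone in a box with toys and plastic tubing, called novelty here, or under standard conditions. A line that the labels call ifKO Kdm5c, and its controls (ifWT), both on a pure C57BL/6J background, were sampled under standard conditions only. Each of these 6 groups had 2 libraries, and each library pooled 2 mice per the series design. The enhancer-associated mark H3K4me1, and the Kdm5C protein, had 1 KO and 1 WT library each, on a pure C57BL/6J background. The sources used here do not say which allele or driver made the ifKO line. Kdm5C is an X-linked enzyme that removes methyl groups from H3K4.

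TFIID is built from the TATA-binding protein TBP and a set of TBP-associated factors (TAFs), and it nucleates the preinitiation complex of RNA polymerase II. TBP bends DNA at the core promoter. TAF1 is the large scaffold subunit that contacts TBP and carries bromodomains. TAF3 holds a PHD finger that binds trimethylated H3K4, so TFIID is itself a reader of the mark measured here. TAF4 pairs with TAF12 through histone folds and lies, with TAF5, in the structural core of the complex. TAF4B is a paralog of TAF4 best known from mouse ovary and testis.

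Promoter sequences are shown for the gene whose start region varied most between libraries, Taf4, and for Tbp, whose start region varied little. They come from RefSeq on GRCm38.p6 and run from 250 bases before to 50 after the start on the gene's strand, Taf4 at chr2:179976597-179976896 on the minus strand and Tbp at chr17:15499638-15499937 on the plus strand. Capitals mark GGGCGG and its reverse complement CCGCCC, the GC box core.
Taf4: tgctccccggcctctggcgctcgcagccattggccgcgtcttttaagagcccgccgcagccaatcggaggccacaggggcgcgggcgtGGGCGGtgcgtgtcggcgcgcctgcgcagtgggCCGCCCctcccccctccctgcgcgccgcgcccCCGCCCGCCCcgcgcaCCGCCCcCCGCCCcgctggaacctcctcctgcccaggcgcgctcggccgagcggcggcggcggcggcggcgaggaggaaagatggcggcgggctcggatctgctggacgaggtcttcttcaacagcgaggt
Tbp: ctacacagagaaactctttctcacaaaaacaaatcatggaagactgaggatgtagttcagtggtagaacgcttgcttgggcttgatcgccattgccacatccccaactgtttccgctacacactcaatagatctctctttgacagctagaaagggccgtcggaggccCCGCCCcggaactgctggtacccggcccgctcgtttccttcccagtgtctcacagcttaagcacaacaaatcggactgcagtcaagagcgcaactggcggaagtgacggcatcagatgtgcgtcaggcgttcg
The Taf4 window was 77.3% G and C, above 97.8% of the 32851 RefSeq mouse promoter windows, and held 45 CpG dinucleotides and 6 GC boxes. The Tbp window was 53.3% G and C, close to the median of 52.7%, with 17 CpG dinucleotides and 1 GC box. Across all windows the median number of CpG dinucleotides was 7, and 35.7% held a GC box on either strand. The windows of Taf3 and Taf12 were 66.7% and 65.3% G and C, and those of Taf5 and Taf1 56.3% and 54.3%. TATAAA, searched on both strands, occurred in the Taf5 window alone among the 6 genes with an entry, against 13.6% of all windows. The cyclic AMP response element TGACGTCA occurred in none of the 6 and in 1.79% of all windows. Its inner part TGACG occurred once at Taf1, in 2 places each at Taf5 and Tbp, and in 20.8% of all windows. Taf4b was not matched.

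Library totals over the H3K4me3 regions were 18181192 to 30435735 reads, and values below are CPM, counts scaled to a common library size with TMM factors, with the SD of the 2 libraries where a mean is given. The Kdm5C antibody gave a median of 0.822 covered bases per base of region in the KO library and 3.96 in the WT library, over 2321 regions. Regions at all 6 markers of pyramidal and granule neurons were present and summed to 498 to 695 CPM per library, and 0 of 3 choroid plexus markers had a region. Markers of interneurons (4 of 4), astrocytes (4 of 4), the oligodendrocyte lineage (5 of 5), microglia (5 of 5), vascular cells (4 of 4) and striatum (4 of 4) also had regions. Their sums were 47.6 to 68.5, 159 to 221, 152 to 176, 17.7 to 28.0, 88.6 to 128 and 83.8 to 96.2 CPM, in that order. In such bulk tissue, fewer cells carrying a mark and less of it per cell cannot be told apart.

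Scaled to region length, 10 of the regions had high levels and 3 were weak. The highest median levels over the 12 libraries were at the starts of Taf5 (53.2 CPM per kb), Tbp (52.7) and Taf3 (49.95). The region upstream of Tbp, which lies at the end shared with the proteasome gene Psmb1, followed at 49.7 CPM per kb, then the upstream flank of Taf4 (46.8), Taf12 (43.6) and the Taf4b start (43.5). The Taf4 start region had 36.2, the Taf4 gene-side flank 24.4 and the Taf1 start 20.2 CPM per kb. The ranges over libraries of neighbours in this order overlapped down to the Taf1 start. The 3 weak regions were the outer Taf1 region (1.81 CPM per kb) and the pair inside Taf4b (1.02 and 0.850). Their highest library, at 3.46 CPM per kb, lay below the lowest library of every other member region, at 16.1 CPM per kb. Of the 13 regions, the one nearest the limit of the 2 kb window was the region upstream of Tbp, 1047 bp from the gene, with 71.2 to 89.4 CPM. Just outside were a region 3582 bp from Taf12 with 7.37 to 12.3 CPM and one 4754 bp from Taf1 with 0.294 to 2.13 CPM.

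**Figure D1:**
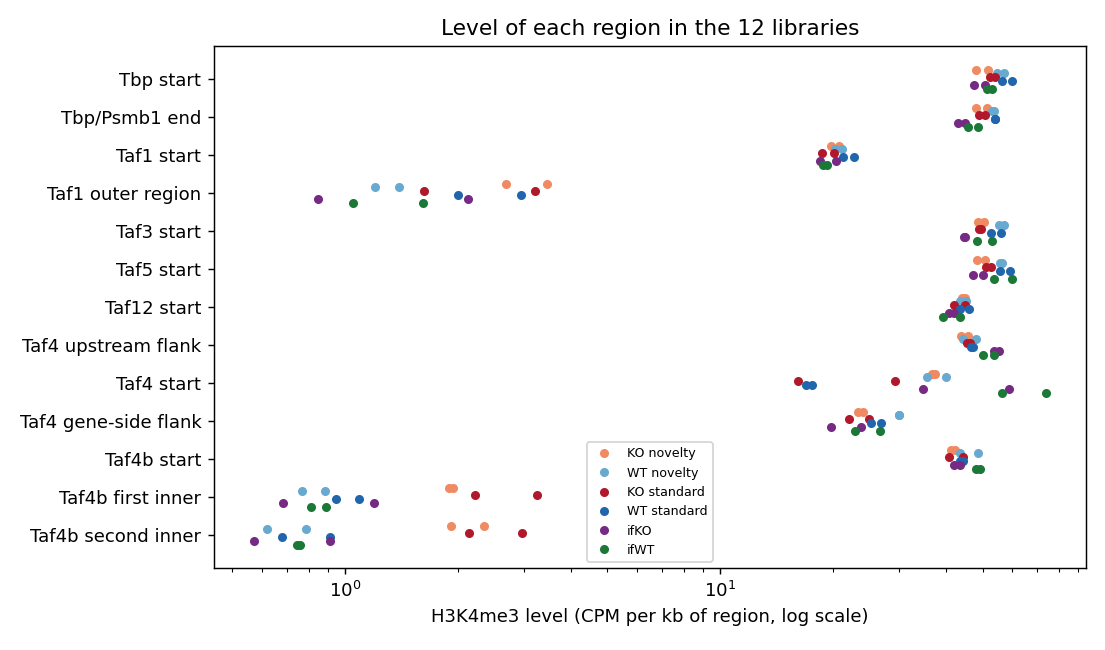
H3K4me3 at the 13 regions (rows) in CPM per kb of region on a log axis, with 1 point per library and colours for the 6 groups. The 3 weak regions lie at or below 3.46 CPM per kb and all others at or above 16.1, and the Taf4 start region has the widest spread among the others.

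H3K4me3 around the Taf4 start was split into 3 neighbouring regions, and the values of the central one set it apart from both flanks. The central region, chromosome 2 from 179975979 to 179976693, covers the annotated start from -47 to 667 bp. The upstream flank (179976822 to 179977834, -1188 to -176 bp) lies 128 bp away on the other side of the start, where the noncoding gene 4921531C22Rik begins. The gene-side flank (179974830 to 179975637, 1009 to 1816 bp) lies 341 bp away inside Taf4.

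The start region had 26.2 and 26.7 CPM in KO after novelty, against 11.5 and 20.9 CPM in KO under standard conditions. It had 25.5 and 28.5 CPM in WT after novelty, against 12.1 and 12.6 CPM in WT under standard conditions. All 4 novelty libraries exceeded all 4 standard libraries of the same cohort, and the standard libraries of KO differed from each other by more than those of any other group in that cohort. The fitted novelty change was 2.19-fold in WT, or 1.13 ± 0.18 on the log2 scale (SE), and 0.70 ± 0.17 in KO. Without one or the other KO standard library the KO value was 0.34 or 1.20. The KO change minus the WT change was -0.43 ± 0.25. In the comparison of novelty with standard conditions in WT, 0.00556% of all regions were called by edgeR. The start region of Taf4 was the 1 member among them, which follows from its choice and is not a test. DESeq2 (1.13 ± 0.34) and limma-voom (1.13 ± 0.22) did not call it there.

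The cohort on the pure background gave higher levels without any novelty. The start region had 24.8 and 42.0 CPM in ifKO and 52.7 and 40.3 CPM in ifWT. Both ifWT libraries and 1 of the 2 ifKO libraries therefore exceeded every library taken after novelty. The cohorts differ in genetic background and in line, which cannot be told apart. Over the 12 libraries the highest value was 4.57 times the lowest. Among the 15971 regions with a mean of at least 10 CPM the median of that ratio was 1.28, and 0.420% reached the ratio of the Taf4 start. The region was chosen on counts that enter this ratio, so its place among all regions is a description.

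**Figure D2:**
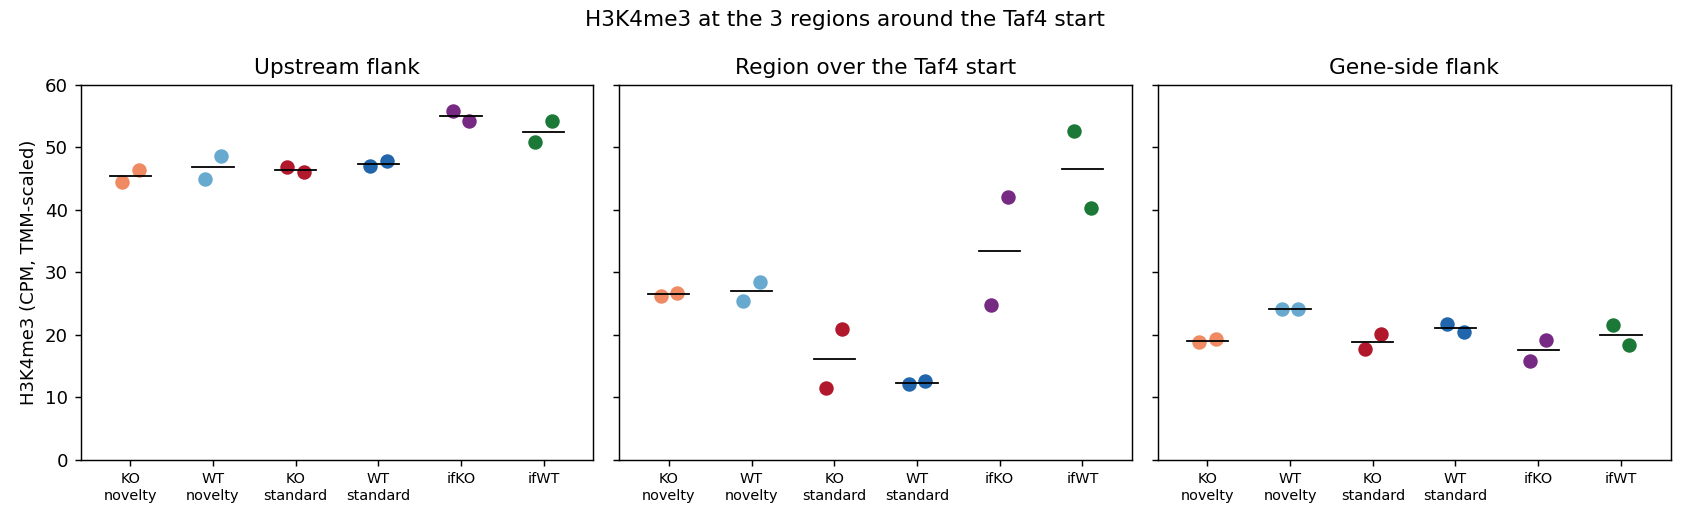
H3K4me3 in CPM at the upstream flank, the start region and the gene-side flank of Taf4, with 1 point per library and a line at the mean of each group of 2. Values at the start region run from 11.5 to 52.7 CPM, while the upstream flank stays between 44.4 and 55.9 CPM and the gene-side flank between 15.9 and 24.2 CPM.

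Both flanks varied less than the start region. The upstream flank had 44.4 and 46.3 CPM in KO after novelty, against 46.9 and 46.0 CPM in KO under standard conditions. It had 44.9 and 48.7 CPM in WT after novelty, against 47.0 and 47.8 CPM in WT under standard conditions. The novelty and standard libraries overlapped in both genotypes, and the ifKO (55.9 and 54.3 CPM) and ifWT (50.8 and 54.2 CPM) libraries lay above them, as most of that cohort's libraries did at the start region. The novelty change there was -0.02 ± 0.06 in WT and -0.04 ± 0.06 in KO on the log2 scale. At the gene-side flank it was 0.20 ± 0.10 in WT, where the novelty libraries (24.1 and 24.2 CPM) lay above the standard libraries (21.7 and 20.4 CPM), and 0.01 ± 0.10 in KO, where they overlapped.

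As a share of the reads in the 3 Taf4 regions together, a ratio that does not depend on scaling to library size, the start region held 29.4% and 28.9% in KO and 26.9% and 28.1% in WT after novelty. Under standard conditions it held 15.1% and 24.0% in KO and 15.0% and 15.6% in WT. The share was 25.7% and 36.4% in ifKO and 42.1% and 35.7% in ifWT. The 95% Wilson intervals of these shares reached between 1.63 and 2.08 percentage points to either side and cover counting error only.

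The Taf4 start was set beside 25017 other regions whose log2 CPM averaged 1 or more. The patterns most like that of the Taf4 start over the 12 libraries were at Zfp362 (Pearson r = 0.98), at the shared region of Qk, Cahm and Gm46608 (0.98), at E530011L22Rik, Nktr and Zfp651 (0.97), at Zfp704 (0.97) and at Mphosph9 and Pitpnm2 (0.96). The libraries share cohort and condition, so these values are descriptions, and the median r over all regions was -0.03. The Qk region had nearly the same span, with means of 20.6 CPM in KO and 20.8 CPM in WT after novelty, 13.7 CPM in KO, against 12.1 CPM in WT, under standard conditions, 29.8 CPM in ifKO and 36.0 CPM in ifWT. Other TFIID regions were less like it, with r of 0.49 at the upstream flank of Taf4, 0.47 at the Taf4b start, 0.06 at the gene-side flank, -0.07 at Taf5, -0.23 at Taf3, -0.50 at the Tbp start, -0.52 at the Taf1 start, -0.57 upstream of Tbp and -0.65 at Taf12.

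The GC content of promoters moved with this pattern. For regions that hold a start site, the median r with the Taf4 start region was -0.31 where the promoter window was under 50% G and C, -0.15 at 50 to 60%, 0.05 at 60 to 70%, 0.33 at 70 to 80% and 0.63 at 80% or more (1393, 3855, 4479, 1860 and 191 regions). Relative to the 12-library mean, promoters of 80% or more had a median log2 deviation of -0.08 and -0.09 in KO after novelty and -0.01 and 0.03 in WT after novelty. Under standard conditions it was -0.13 and -0.05 in KO and -0.06 and -0.02 in WT. The ifWT libraries had the highest values. The median log2 novelty change in those promoters was 0.06 in WT and -0.007 in KO. At 70 to 80% it was 0.02 in WT and -0.016 in KO, so the WT rise was not seen in KO. The median ifWT minus WT standard difference was 0.20 at 80% or more and 0.07 at 70 to 80%. Each library was also offset by a curve fitted to promoter GC, an alternative chosen after seeing the data. The novelty change at the Taf4 start was then 1.09 ± 0.18 in WT and 0.71 ± 0.17 in KO. These values are descriptions, since the region was chosen on its novelty change. The offset takes out only the trend shared by promoters of like GC, which was small. The part of GC content in the novelty change at the Taf4 start, or in the differences between the cohorts there, was not tested.

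**Figure D3:**
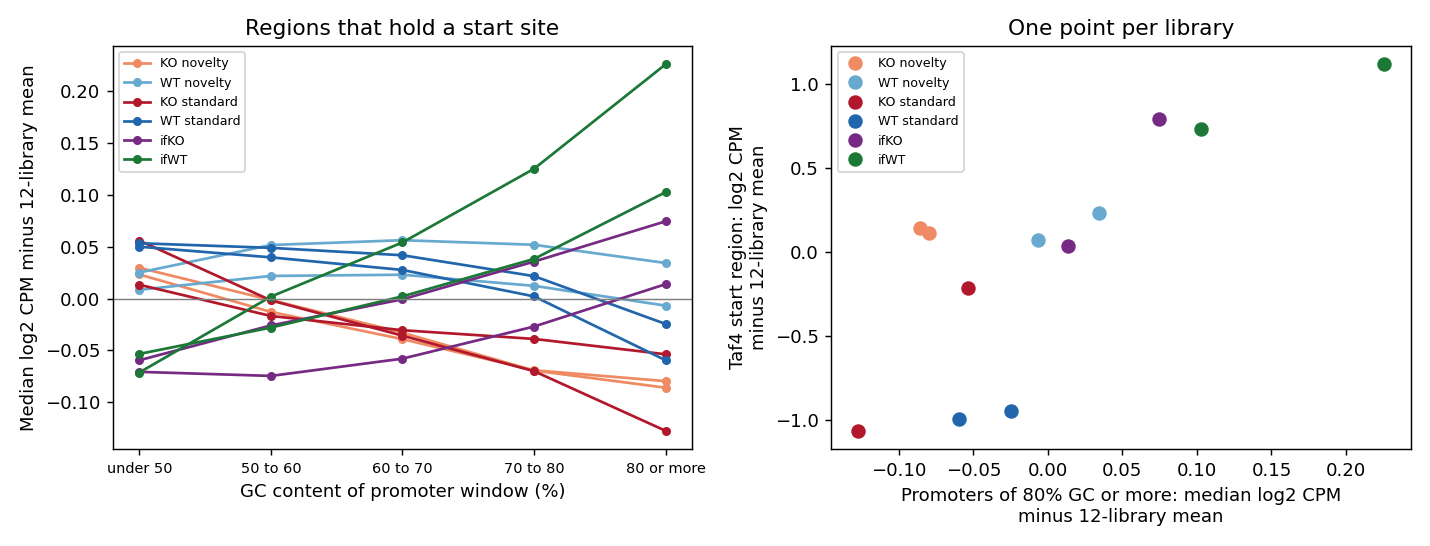
Left, the median log2 deviation from the 12-library mean of regions that hold a start site, by GC content of the promoter window, with 1 line per library. Right, the deviation of the Taf4 start region against that of the 191 promoters of 80% GC or more, with 1 point per library; the ifWT libraries lie at the upper right, and the right panel's vertical scale is several times wider than its horizontal scale.

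Averaged over novelty and standard conditions, the log2 difference between KO and WT at the Taf4 start region was 0.19 ± 0.13 (SE), given as a description. It was -0.064 when KO standard replicate 2 was left out and 0.36 when replicate 1 was. In ifKO against ifWT, whose libraries played no part in the choice, the log2 change was -0.48 ± 0.16 with an edgeR quasi-likelihood adjusted p of 0.0786. The groups overlapped, since 1 ifKO library at 42.0 CPM lay above 1 ifWT library at 40.3 CPM. The ifKO value passed the threshold when only the compared groups were fitted (adjusted p 0.0351), without KO standard replicate 1 (0.0200) or 2 (0.0206) and without ifWT replicate 2 (0.0304). Without ifKO replicate 2 it was -0.90 (2.8e-04). The summed neuron markers moved the other way, with 641 and 695 CPM in ifKO and 498 and 548 CPM in ifWT. Among these 6 markers Camk2a had the widest range over the 12 libraries, 124 to 272 CPM, so the sum need not stand for all of them. The part of these markers in the ifKO value at the Taf4 start was not tested.

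The gene-side flank of Taf4 fell in KO. It had 18.8 and 19.4 CPM in KO, against 24.1 and 24.2 CPM in WT, after novelty, without overlap, a log2 change of -0.34 ± 0.10 (SE, edgeR adjusted p 0.0173). Under standard conditions it had 17.8 and 20.1 CPM in KO, against 21.7 and 20.4 CPM in WT, a change of -0.15 ± 0.10 that did not pass (0.362). Averaged over both, the change was -0.25 ± 0.07 (adjusted p 0.0094). The novelty call was lost without any one of the 4 libraries compared (0.0651 to 0.129), and the average call without KO standard replicate 1 (0.0550). The upstream flank did not pass in any tested comparison, with an average KO change of -0.04 ± 0.05.

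The pair of weak regions inside Taf4b held the largest genotype differences among the members when both conditions were averaged. They lie 56 bp apart on chromosome 18, from 14844359 to 14845262 and from 14845319 to 14846498, and 60112 bp from the region at the gene start. The first had 49 and 80 reads in KO against 19 and 22 in WT under standard conditions, and 54 and 43 reads in KO against 19 and 20 in WT after novelty. The second had 85 and 69 reads in KO against 24 and 18 in WT under standard conditions, and 71 and 68 reads in KO against 22 and 21 in WT after novelty. Every KO library exceeded every WT library at both.

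Under standard conditions the second region averaged 3.01 ± 0.678 CPM in KO libraries, against 0.941 ± 0.194 CPM in WT libraries (SD, n = 2 each). Its log2 change there was 1.67 ± 0.31 (SE, edgeR adjusted p 1.9e-04), with 1.60 ± 0.31 after novelty (3.3e-04) and 1.63 ± 0.22 averaged over both (5.0e-07). The first region rose by 1.43 ± 0.32 (adjusted p 0.0022), 1.21 ± 0.33 (0.0111) and 1.32 ± 0.23 (4.8e-05) in the same order. Since the regions are neighbours and may share fragments, they are not separate evidence. The standard call of the first region was lost without KO standard replicate 2 (0.0683), and its novelty call when WT novelty replicate 2 (0.130) was left out, or KO novelty replicate 1 (0.0623) or 2 (0.0537).

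In the ifKO line the pair had 21 and 11 reads in ifKO against 15 and 18 in ifWT at the first region, and 21 and 12 reads in ifKO against 18 and 20 in ifWT at the second. The groups overlapped at both, and the log2 changes were 0.15 ± 0.41 (edgeR adjusted p 0.896) and -0.01 ± 0.39 (0.997). The difference between the KO and ifKO effects was 1.28 ± 0.52 at the first region and 1.67 ± 0.50 at the second, and neither passed the test (edgeR adjusted p 0.438 and 0.139). At the Taf4b start (14782622 to 14784246) the average KO change was -0.10 ± 0.04 (0.0810).

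Weak regions as a class had a higher median in KO. The 15489 regions with a mean log2 CPM under 2 had a median log2 KO change of 0.18 under standard conditions and 0.19 after novelty. It was 0.17 for their average, and the median over all regions was 0.01 in each. The share called higher did not differ in this way, at 9.45% of weak regions and 9.74% of all regions under standard conditions. Summed microglia markers were 24.0 and 28.0 CPM in KO, against 21.7 and 21.7 CPM in WT, under standard conditions, 23.1 and 26.9 CPM in KO and 17.7 and 21.5 CPM in WT after novelty, and 19.4 and 21.4 CPM in ifKO and 20.3 and 21.7 CPM in ifWT. The part of either in the Taf4b result was not tested. With offsets fitted to region strength the Taf4b pair stayed past the threshold in the standard, novelty and average comparisons.

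**Figure D4:**
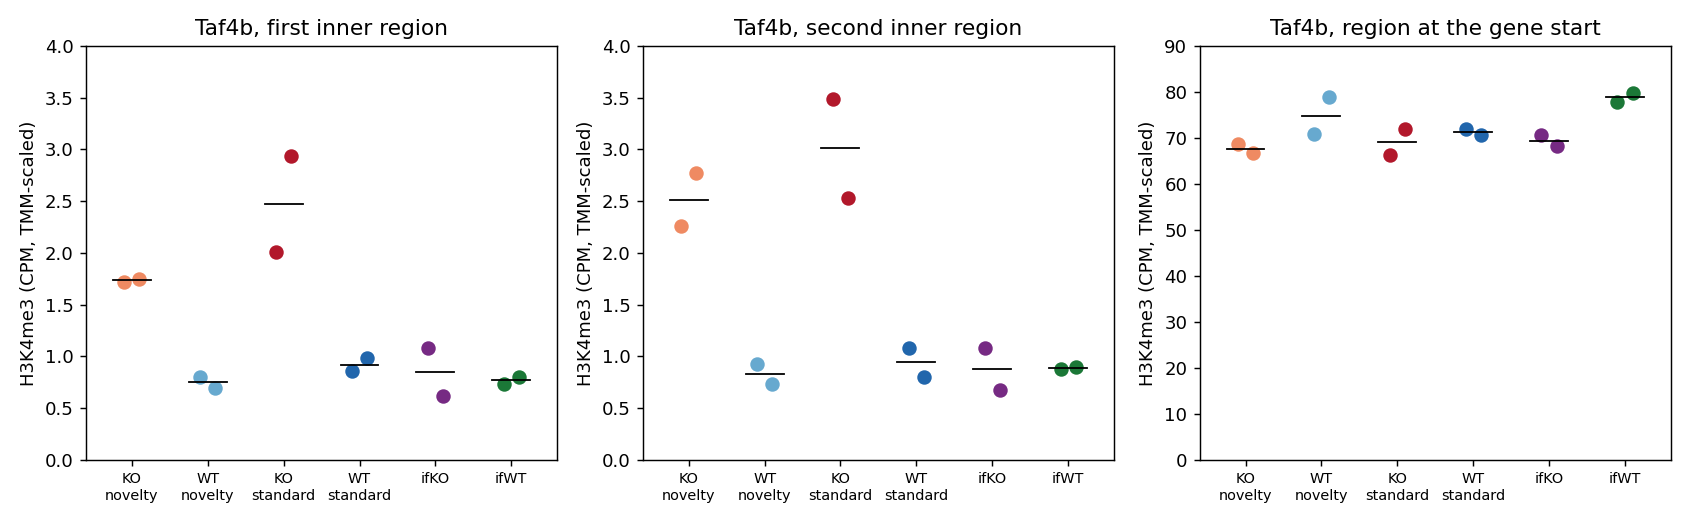
H3K4me3 in CPM at the 2 regions inside Taf4b and at its start, with 1 point per library and a line at the mean of each group of 2. At both inner regions the 4 KO libraries lie above all other libraries, and the start region shows no such split.

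The start regions of Taf3, the reader subunit, and Taf5, a subunit of the structural core, were slightly lower in KO when both conditions were averaged. Taf3 (chromosome 2, 10047494 to 10049428) had 94.1 and 97.6 CPM in KO, against 107 and 110 CPM in WT, after novelty, and 94.4 and 95.7 CPM in KO, against 102 and 109 CPM in WT, under standard conditions. No KO library reached a WT library in either condition. The change averaged over both was -0.16 ± 0.04 on the log2 scale (SE, edgeR adjusted p 0.0016), and after novelty it was -0.18 ± 0.05 (0.0189). Under standard conditions (-0.14 ± 0.05, 0.0765) and in ifKO (-0.18 ± 0.06, 0.0646) it did not pass, with 86.9 and 86.5 CPM in ifKO and 102 and 93.6 CPM in ifWT.

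Taf5 (chromosome 19, 47067237 to 47069008) was the 1 member called in ifKO, where 5.38% of all regions were called. It had 83.4 and 88.8 CPM in ifKO and 106 and 95.2 CPM in ifWT, without overlap, a log2 change of -0.23 ± 0.06 (SE, edgeR adjusted p 0.0171). The call was lost without ifWT replicate 1 (0.321) or ifKO replicate 1 (0.247) and when only the compared groups were fitted (0.0675). In the KO cohort Taf5 had 85.8 and 89.8 CPM in KO, against 99.6 and 98.8 CPM in WT, after novelty, and 93.4 and 90.6 CPM in KO, against 98.7 and 105 CPM in WT, under standard conditions. The average KO change was -0.16 ± 0.04 (0.0026), and that after novelty -0.18 ± 0.06 (0.0286). Under standard conditions it did not pass (-0.15 ± 0.06, 0.0862).

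The novelty calls of Taf3 and Taf5 were fragile. That of Taf3 was lost when WT novelty replicate 2 (0.162) was left out, without KO novelty replicate 1 (0.190) or 2 (0.0571) and with offsets fitted to promoter GC (0.119). That of Taf5 was lost without any one of the 4 novelty libraries (0.0649 to 0.250), with library totals as scaling (0.0794) and with offsets fitted to promoter GC (0.0633).

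Summed markers of 3 other cell types also lay lower in KO than in WT, without overlap, in both conditions. The 4 interneuron markers summed to 47.6 and 52.1 CPM in KO, against 58.0 and 64.9 CPM in WT, after novelty, and to 50.2 and 50.7 CPM in KO, against 57.3 and 63.9 CPM in WT, under standard conditions. The 4 vascular markers summed to 101 and 111 CPM in KO, against 117 and 119 CPM in WT, after novelty, and to 105 and 119 CPM in KO, against 125 and 128 CPM in WT, under standard conditions. The 5 markers of the oligodendrocyte lineage summed to 155 and 159 CPM in KO, against 162 and 163 CPM in WT, after novelty, and to 152 and 162 CPM in KO, against 165 and 170.3 CPM in WT, under standard conditions. In the other line the oligodendrocyte list had 155 and 158 CPM in ifKO, against 169 and 176 CPM in ifWT, while the ranges of the interneuron and vascular lists overlapped. The remaining lists differed. Microglia sums, given above, lay higher in KO without overlap in both conditions. Striatal sums lay higher in KO under standard conditions, with 88.7 and 90.7 CPM against 83.8 and 85.4 CPM in WT, and overlapped after novelty. Sums of pyramidal and granule neuron markers and of astrocyte markers overlapped in both conditions. The part of any of these markers in the falls at Taf3, Taf5, Tbp, the Taf4 flank and the lists of other genes was not tested.

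Taf12, which encodes the histone-fold partner of TAF4, gave the smallest average KO change. Its start region (chromosome 4, 132273650 to 132275370) had 75.9 and 77.0 CPM in KO, against 75.1 and 77.6 CPM in WT, after novelty, and 77.3 and 72.3 CPM in KO, against 75.1 and 79.3 CPM in WT, under standard conditions. The groups overlapped in both conditions, and the average KO change was -0.02 ± 0.04 on the log2 scale (edgeR adjusted p 0.726).

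At Tbp, the start region (chromosome 17, 15499430 to 15500682) had 60.1 and 64.7 CPM in KO, against 68.4 and 71.2 CPM in WT, after novelty, and 67.6 and 65.6 CPM in KO, against 70.7 and 75.2 CPM in WT, under standard conditions. KO lay below WT without overlap in both, but neither condition alone passed (edgeR adjusted p 0.0510 after novelty and 0.142 under standard conditions). The average log2 change was -0.15 ± 0.04 (edgeR adjusted p 0.0071). The region toward Psmb1 (15497187 to 15498841) changed by -0.11 ± 0.04 on average (0.0258), and did not pass after novelty (0.179) or under standard conditions (0.159). These calls were lost without WT standard replicate 2 (0.0539 and 0.0687) or KO novelty replicate 1 (0.0669 and 0.159). The second was also lost with library totals as scaling (0.159) and without WT standard replicate 1 (0.0647), KO standard replicate 2 (0.0910) or WT novelty replicate 2 (0.0748).

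Taf1, the scaffold subunit, has a region of higher level at its promoter (chromosome X, 101532131 to 101533687). A weak outer one (101527397 to 101528003) lies over the most distal start of the RefSeq gene. The promoter region had an average KO change of -0.11 ± 0.06 on the log2 scale (edgeR adjusted p 0.140). The weak one had 66 and 40 reads in KO against 20 and 21 in WT after novelty, a change of 1.25 ± 0.37 (0.0187). Under standard conditions it had 24 and 53 reads in KO against 27 and 40 in WT, which overlapped, and the change was -0.02 ± 0.36. The novelty call was lost with DESeq2 (0.0675), with offsets fitted to region strength (0.0572), and without WT novelty replicate 1 (0.0574) or 2 (0.175) or replicate 1 of the KO novelty libraries (0.176).

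**Figure D5:**
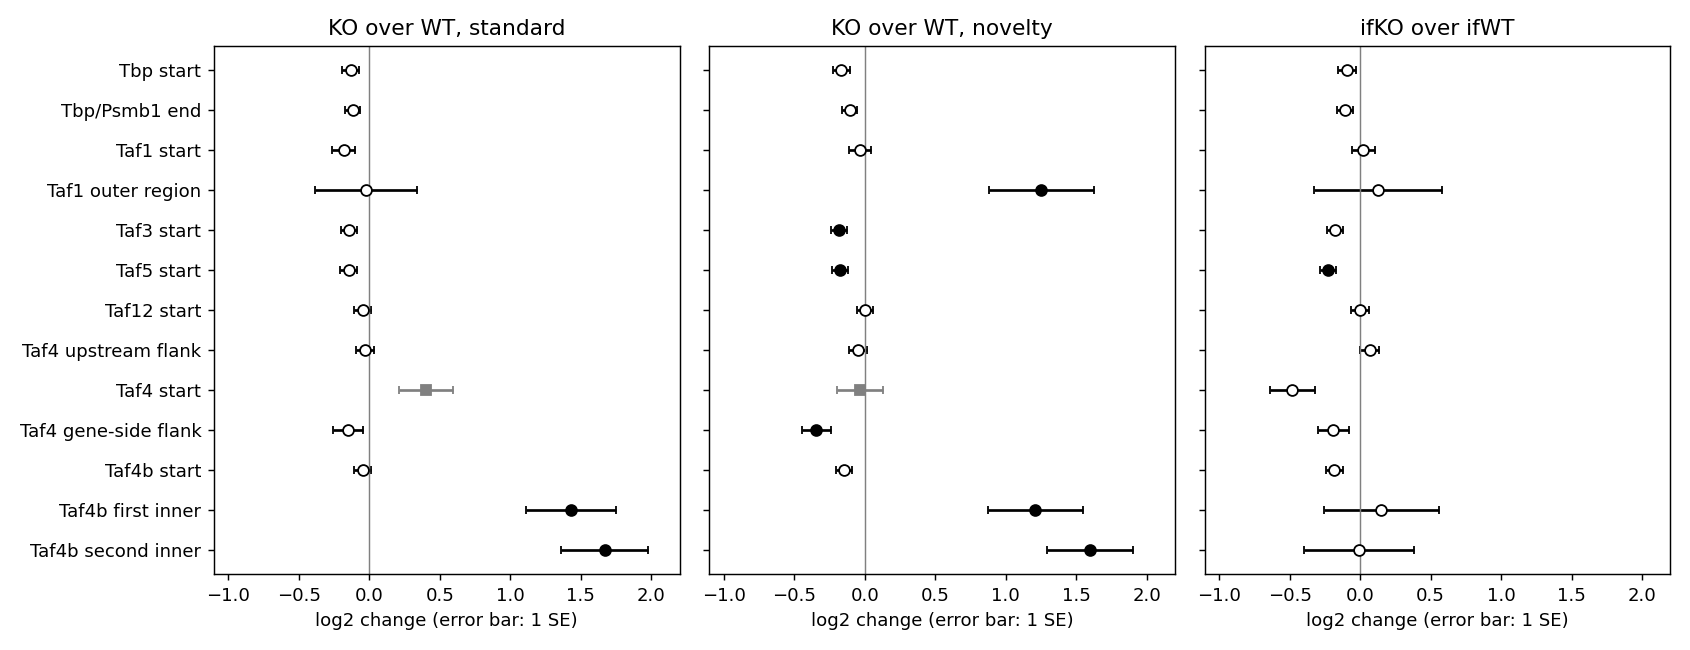
Log2 change ± 1 SE of the 13 regions in KO over WT under standard conditions, in KO over WT after novelty, and in ifKO over ifWT. Filled circles passed an edgeR adjusted p of 0.05, open circles did not, and grey squares mark the Taf4 start values that share libraries with the contrast that chose it and were not tested; the Taf4b inner regions lie at 1.21 to 1.67 in KO and near 0 in ifKO.

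Strong regions as a class were slightly lower in KO. The 6077 regions with a mean log2 CPM of 6 or more had a median average KO change of -0.10, and 46.1% of them fell in that comparison. Among the members, the starts of Taf3, Taf5, Taf12 and Taf4b and both Tbp regions belong to this class. The Taf1 promoter region and the 3 Taf4 regions do not, with means of 4.33 to 5.61. With offsets fitted to region strength, the average calls of Taf3 (-0.08, adjusted p 0.0611), Taf5 (-0.08, 0.0772), the Tbp start (-0.08, 0.107) and the Psmb1 side (-0.04, 0.486) were lost, as were the novelty calls of Taf3 (0.161) and Taf5 (0.204) and the ifKO call of Taf5 (0.0559). The gene-side flank of Taf4 held under that setting, at -0.30 ± 0.07 averaged over both conditions (edgeR adjusted p 0.0022). With offsets fitted to promoter GC instead, the average calls of Taf3 (edgeR adjusted p 0.0288), Taf5 (0.0144) and the Tbp start (0.0314) were kept. So was the ifKO call of Taf5 (0.0202), so these calls depended on which offset was used.

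Without the Taf4 start, which was not tested there, 2 of 12 member regions were called by edgeR in KO under standard conditions, both higher, against 13.4% of all 35955 regions tested (9.74% higher and 3.67% lower). After novelty 6 were called, 3 higher and 3 lower, against 17.0% of all regions (11.1% higher and 5.94% lower). In the average 7 were called, 2 higher and 5 lower, against 32.1% (18.1% higher and 13.9% lower). In ifKO, where all 13 were tested, the 1 call was lower, against 4.41% higher and 0.976% lower over all regions. The difference between the KO and ifKO effects called 0 of the 12 in edgeR, DESeq2 and limma-voom, with 2 of them under an unadjusted p of 0.05 in edgeR. Over all 35955 regions edgeR called 0.701%, and 3040 were under an unadjusted p of 0.05. The median log2 KO change over the 12 regions was -0.08 under standard conditions, -0.08 after novelty and -0.10 on average, against 0.01 over all regions in each.

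The other genes of the machinery were read from 5 lists of 54 genes, of which 52 had a region, and 34 of these were strong (mean log2 CPM of 6 or more). The counts below stand against 3.67% of all regions lower under standard conditions, 5.94% after novelty and 13.9% on average, and against 12.6%, 21.5% and 46.1% of strong regions in the same order. Counts of genes higher in KO stand against 9.74%, 11.1% and 18.1% of all regions in that order. Many of the counts also changed when 1 library was left out, as given for each list. Besides that of Taf9, some regions named below lay inside or within 2 kb of other genes too, so their change cannot be assigned to a single gene. These were Taf7 (Gm37013, Gm38666 and Gm38667), Tada3 (Arpc4), Taf5l (Mir1967 and Urb2), Drap1 (4930481A15Rik and AI837181), Taf1c (Rps13-ps4) and Brf1 (9230104M06Rik).

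Of the remaining 9 TFIID subunits, 0 were higher and 2 lower in KO under standard conditions, 0 and 1 after novelty, and 0 and 2 on average. Taf9, a histone-fold subunit, had the largest fall in that list on average. Its region, shared with Ak6 and Rad17, fell to 111 ± 3.20 CPM in KO against 124 ± 3.55 CPM in WT (SD, n = 4 each), -0.16 ± 0.04 on the log2 scale (edgeR adjusted p 9.0e-04). Taf7, a regulator of TAF1, changed by -0.15 ± 0.04 (0.0066). The list's median average change was -0.10. Of its calls under standard conditions, 0 were left without either WT standard library and 1 without either KO standard library. The novelty call was lost without any one of the 4 novelty or 2 WT standard libraries, and 1 average call without KO standard replicate 2.

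Among 14 paralogs of TAFs and subunits of SAGA, a coactivator that shares TAFs with TFIID, 0 were higher and 1 lower under standard conditions, 0 and 5 after novelty, and 0 and 8 on average. Tada3, an adaptor of the acetyltransferase module, had 111 ± 1.99 CPM in KO, against 125 ± 3.86 CPM in WT, on average (-0.17 ± 0.04, adjusted p 8.6e-04), and Taf5l, the SAGA paralog of Taf5, changed by -0.17 ± 0.04 (0.0031). After novelty the largest falls of that list were at Tada1 (-0.24 ± 0.06, 0.0063) and at the acetyltransferase gene Kat2b (-0.22 ± 0.06, 0.0068). Of the 5 novelty calls, the count was 1 without replicate 2 of WT novelty, 0 without replicate 1 of KO novelty and 2 without its replicate 2. The count under standard conditions was 0 without WT or KO standard replicate 2, and 2 without any one of the ifKO or ifWT libraries.

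Of 4 relatives and regulators of TBP, 3 were lower on average, with Drap1 at -0.15 ± 0.05 (0.0151) and Btaf1 at -0.11 ± 0.04 (0.0263). That count was 1 without either WT standard library, and 0 without KO standard replicate 1, replicate 2 of WT novelty or replicate 2 of KO novelty.

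Of 18 other general transcription factor genes, 2 were higher and 8 lower on average, 1 and 1 under standard conditions, and 0 and 1 after novelty. The largest rise was at Gtf2a1l, a TFIIA gene known for its role in male germ cells, which under standard conditions averaged 3.32 ± 0.127 CPM in KO libraries, against 1.81 ± 0.278 CPM in WT libraries (SD, n = 2 each). Its log2 change was 0.87 ± 0.24 (edgeR adjusted p 0.0148), and averaged over both conditions 0.66 ± 0.17 (0.0030). Ercc2, a helicase of TFIIH, was lower after novelty (-0.29 ± 0.07, 0.0044) and on average (-0.20 ± 0.05, 0.0026), and Cdk7, its kinase, under standard conditions (-0.18 ± 0.06, 0.0364). Calls of either direction under standard conditions numbered 0 without WT standard replicate 2, 1 without any one of the 4 KO libraries, and 5 without any one of the ifKO or ifWT libraries. The novelty call was lost without replicate 2 of WT novelty or replicate 1 of KO novelty, and the count was 2 without ifWT replicate 2. On average it was 6 without replicate 2 of WT novelty.

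Of 7 genes for the TBP complexes of RNA polymerases I and III, 0 were higher and 4 lower on average, with 2 lower under standard conditions and 1 after novelty. Taf1c, a subunit of the polymerase I factor SL1, changed by -0.18 ± 0.05 on average (0.0039), and Brf1, a subunit of the polymerase III factor TFIIIB, by -0.17 ± 0.04 (0.0023). Brf2, its relative, was lower under standard conditions (-0.20 ± 0.06, 0.0333). The calls under standard conditions numbered 0 without any one of the 4 standard libraries and 1 without any one of the 4 novelty libraries, and the novelty call was lost without replicate 2 of WT or of KO novelty.

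In ifKO, 0 of the 52 genes were called by edgeR, DESeq2 or limma-voom, with 13 under an unadjusted p of 0.05 in edgeR. That count was 1 without ifKO replicate 2 and 2 without ifWT replicate 2. Over all 35955 regions, 5.38% were called by edgeR in ifKO, and 6711 had an unadjusted p under 0.05. In the difference between KO and ifKO effects, 0 of the 52 genes were called and 2 had an unadjusted p under 0.05 in edgeR. Over all regions these counts were 252 and 3040. The list of remaining TFIID subunits had 0 calls in KO under standard conditions, after novelty and on average with offsets fitted to region strength.

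Kdm5C and H3K4me1 signals were listed at 4 places around the members, with 1 library per genotype, no scaling to library size and no replicate check. At Taf4, the place lay within the upstream flank (179977055 to 179977311) and had 0.576 covered Kdm5C bases per base in KO and 4.05 in WT. At Taf3 (10048499 to 10048694) it was 2.05 in KO and 3.93 in WT, at Taf12 (132274063 to 132274247) 0 in KO and 4.79 in WT, and upstream of Tbp (15498459 to 15498876) 0.478 in KO and 1.51 in WT. WT exceeded KO at all 4 and at 2312 of all 2321 places, so the members were no exception in direction. In level, the WT signal upstream of Tbp exceeded that of only 0.517% of places. The KO signal at Taf3 exceeded that of 96.1% of places. H3K4me1 was 0 in KO and 0.389 in WT at Taf4, 0.255 in KO and 0.133 in WT at Taf3, 0.541 in KO and 0.254 in WT at Taf12, and 0.462 in KO and 1.42 in WT upstream of Tbp. Medians over all places were 0.357 in KO and 0.601 in WT, and no place was listed at Taf1, Taf4b or Taf5.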

How the data were processed

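The authors deposited, per the file headers, 1 unnormalized read count per region and H3K4me3 library, and for H3K4me1 and Kdm5C a signal that the headers call raw counts and that the values show to be summed base coverage. The upstream tools named in the submitters' processing notes are MACS2 2.1.0, Bowtie2 2.2.9, R 3.3, DESeq2 1.10.0 and SAMtools 1.3.1, on build mm10. The sources used here give neither the rule that defined the regions nor the library totals behind the signal files. Input libraries were not used here.

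The H3K4me3 files share a list of 36005 rows, and 9 repeated regions were removed. All 12 libraries were fitted together in edgeR 4.0.16 (R 4.3.3) with TMM factors, filterByExpr, 1 mean per group, quasi-likelihood F tests and Benjamini-Hochberg adjustment over the 35955 regions that passed the filter, and a region was called at an adjusted p under 0.05. All 13 member regions passed the filter. Standard errors derive from the F statistic. The fit was tested on simulated data. Genes and starts came from RefSeq (GRCm38.p6). Alternatives were DESeq2 1.42.0, limma-voom (limma 3.58.1), other scalings, no filter, compared groups only, a replicate block, and leaving out each library.

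With 2 libraries against 2, no exact permutation test of a single region could reach 0.05, so the tests rest on a spread shared across groups and regions. Where groups are said not to overlap, this describes the libraries and is not a test. The p-values measure the spread between pools. The members and lists were chosen with earlier results of these data known. All 7 genes were named with every region, and from each list the 2 genes with the largest called change per comparison. One ifWT library is titled H3K3me3 and was taken as H3K4me3 from its antibody entry.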

Additional observations from a re-analysis of the deposited data

How the results depend on the processing

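Of the 1249 tested values of single member regions under alternatives, 1185 kept their direction and their side of the threshold, 42 lost a call and 22 gained one. Sign changes of uncalled values within 1 SE of 0 in the reported fit (64) were counted as kept, and 0 called regions changed sign. With offsets fitted to region strength, 3 member regions were called in KO after novelty, 3 on average and 0 in ifKO. Leaving out each library in turn gave 1 to 2 called member regions in KO under standard conditions, 1 to 7 after novelty, 5 to 8 on average, 0 to 3 in ifKO and 0 in the difference between KO and ifKO effects. The novelty change at the Taf4 start ranged from 1.04 to 1.21 in WT and from 0.34 to 1.20 in KO, and the interaction from -0.79 to 0.067. The cause of these changes was not tested.

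With a replicate block, 2, 6, 7, 1 and 0 member regions were called in KO under standard conditions, in KO after novelty, on average, in ifKO and in the difference. Equal replicate numbers gave little sign of pairing. Correlations between groups of the replicate 2 minus replicate 1 difference were -0.03 to 0.13 within the KO cohort and -0.05 between ifWT and ifKO. The highest in the KO cohort were 0.13 between WT standard and WT novelty and 0.12 between KO standard and KO novelty. Whether libraries shared a batch was not tested. Over the whole table, 106 regions were called for novelty in WT when only the compared groups were fitted, 6 with offsets fitted to region strength, 4 with the replicate block, 1 with DESeq2 or limma-voom, and 0 to 12 without single libraries, against 2 reported. The region called for novelty in WT by DESeq2, and that by limma-voom, was not the Taf4 start. With library totals as scaling, 3908 regions were higher and 442 lower in KO under standard conditions, against 3501 and 1320. A window of 1 kb kept 12 regions and one of 5 kb gave 15. Regions with fewer than 100 reads, the Taf4b pair and the outer Taf1 region, are those limited by depth.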
